A study of Mus musculus with 6 samples.

Results

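The mitosis genes described here are 50 genes for the machinery of cell division, chosen by gene symbol from a list of mitotic kinases, checkpoint proteins, kinesins, kinetochore proteins and chromosome proteins. All 50 had a row in the deposited table of 21017 genes, and the rule names them by symbol. The list was drawn up with earlier results of these data known, so its counts below describe these libraries and are not independent support. The samples are total RNA of group 2 innate lymphoid cells (ILC2s), lymphocytes without rearranged antigen receptors that live in barrier tissues and release type 2 cytokines. The 3 IL-10-producing libraries and the 3 IL-10-negative libraries both came from lungs of 8-week-old C57BL/6J mice of the genotype IL-10GFP, in which green fluorescence reports IL-10. All mice had 3 intranasal doses of recombinant mouse IL-33 (0.5 µg each), a cytokine that activates ILC2s. The sorted cells of both groups then spent 48 h in culture with recombinant IL-2, recombinant IL-7 and recombinant IL-4 (10 ng/mL of each), and were sorted again by IL-10, although the cell type label calls them freshly sorted. Libraries started from 10 ng of RNA. Whether the 3 libraries of a group stem from different mice or culture wells is not in the labels, and the p-values therefore measure only how far these libraries spread, which may be technical.

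Mitosis begins when the kinase Cdk1, bound to a B-type cyclin, is switched on by Cdc25 phosphatases. Chromosomes are then compacted by condensin and topoisomerase, attached at their kinetochores to spindle microtubules, and held by the spindle checkpoint until the anaphase-promoting complex (APC/C) is released. The APC/C marks cyclins and securin for degradation, and the loss of securin frees separase, which cleaves the cohesin between sister chromatids. The mRNAs of most of these proteins accumulate in the G2 phase of the cell cycle under the control of the DREAM complex, B-Myb and Foxm1. In bulk RNA, more cells of a kind and more RNA per cell cannot be told apart. ILC2s divide in response to IL-33 and to IL-2 and IL-7.

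All 50 mitosis genes were higher in IL-10-producing than in IL-10-negative ILC2s, each by a small fold. In edgeR's quasi-likelihood F test, with Benjamini-Hochberg adjustment over the 16654 genes tested, all 50 passed an adjusted p of 0.05 in the higher direction, against 17.1% of all genes tested, and 0 passed in the lower direction, against 18.6% (35.7% of all genes passed in either direction). The 3 IL-10-producing libraries lay above all 3 IL-10-negative libraries for each of the 50 genes, against 21.7% of all genes tested. The median log2 fold change of the members was 0.34, or 1.27-fold, beside a median of -0.004 over all genes tested. Folds ran from 1.085 for Bub3 to 1.444 for Ccnb1. They exceeded 1.2-fold for 45 members and 1.3-fold for 15, and 0 reached 2-fold. When the test asked for a change beyond 1.2-fold (edgeR's glmTreat), 27 members passed and 23 did not, against 2.44% of all genes passing in the higher direction. Every adjusted p below is from the first of these tests unless glmTreat is named. A log2 fold change above 0 means a higher level in the IL-10-producing cells.

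**Figure D1:**
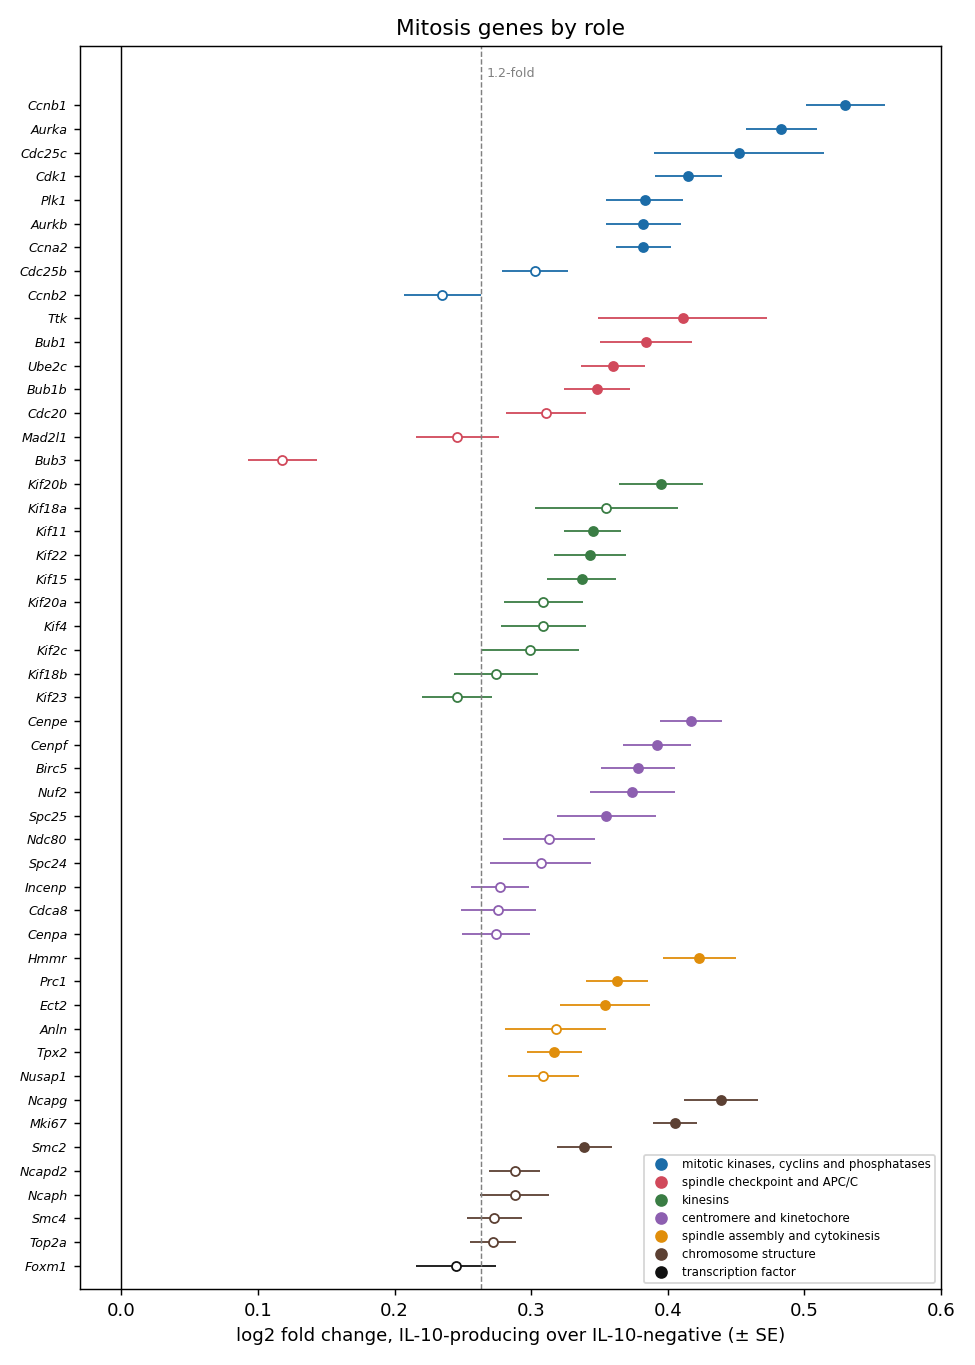
Log2 fold change (IL-10-producing over IL-10-negative) of each of the 50 mitosis genes, grouped by role, with bars of ± 1 SE from the edgeR fit. Filled points passed glmTreat against 1.2-fold (27 genes), open points did not (23 genes), and the dashed line marks 1.2-fold. All points lie right of 0, between 0.12 for Bub3 and 0.53 for Ccnb1.

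The members together took 0.9712%, 0.9719% and 0.9924% of the counts in the 3 IL-10-producing libraries, against 0.791%, 0.7892% and 0.787% in the 3 IL-10-negative libraries. In CPM, counts scaled to a common library size with TMM factors and used as the level throughout, their sum was 9891 ± 76.54 in IL-10-producing cells and 7811 ± 11.37 in IL-10-negative cells (SD, n = 3 each), a ratio of 1.266. The shift was even across libraries. The median log2 distance of the members from their IL-10-negative mean was 0.329, 0.329 and 0.34 in the IL-10-producing libraries, against 0.002, 0.006 and -0.002 in the IL-10-negative libraries. All 50 members lay above that mean in each IL-10-producing library, and 28, 27 and 23 did so in the IL-10-negative ones. The libraries of a group were close to each other: the median coefficient of variation of a member was 1.956% in IL-10-producing and 2.018% in IL-10-negative cells, with Ttk the most variable in both groups at 5.763% and 12.51%.

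**Figure D2:**
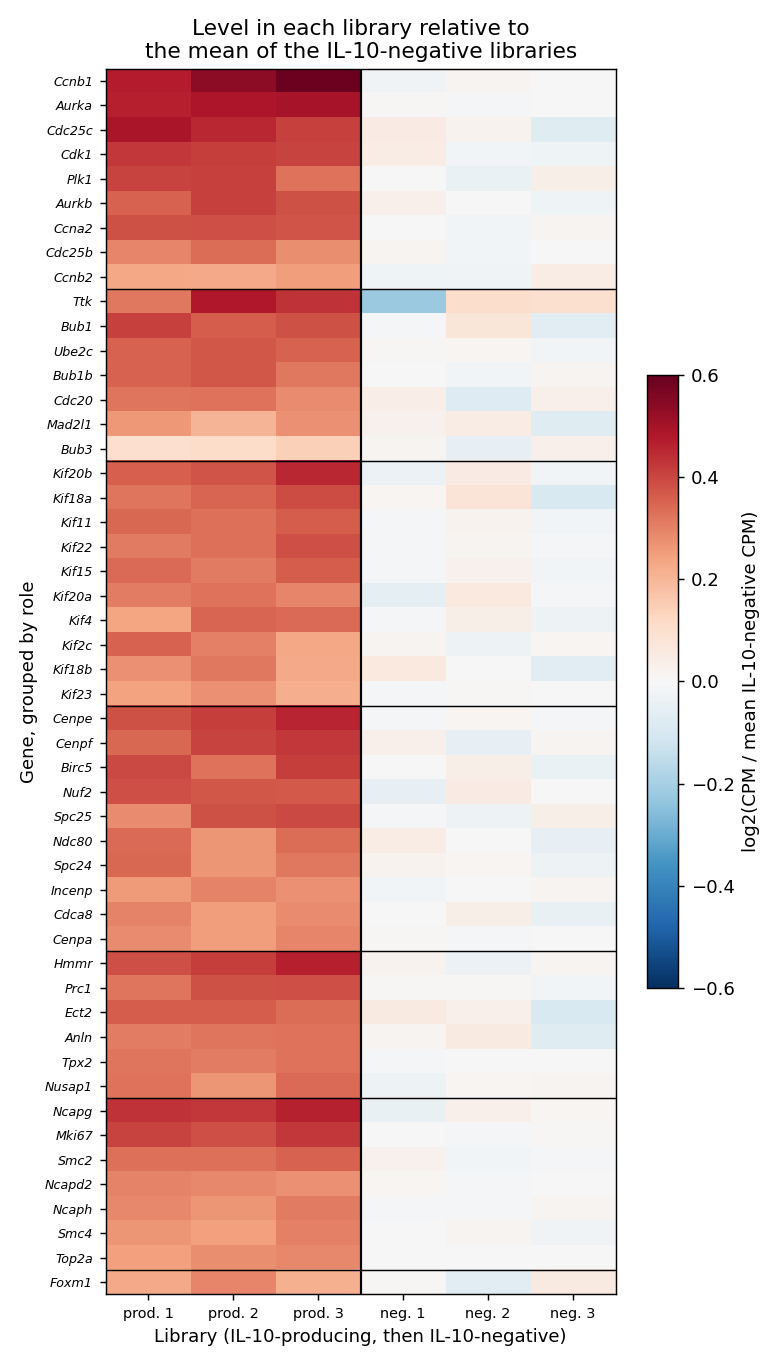
Log2 level of each mitosis gene (rows, grouped by role) in each of the 6 libraries (columns), relative to its mean over the 3 IL-10-negative libraries. All 50 genes lie above 0 in all 3 IL-10-producing libraries, and the medians of the IL-10-negative libraries lie between -0.002 and 0.006.

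Library totals ran from 47012941 to 69511433 counts. The sort was visible in Il10 itself, the gene behind the reporter, at 848.3 ± 7.777 CPM in IL-10-producing cells, against 13.52 ± 0.6084 CPM in IL-10-negative cells (SD, n = 3 each). The defining ILC2 genes were expressed in both groups, with Gata3 at 707.6 and 832.2 CPM and Il1rl1, the IL-33 receptor, at 3299 and 4069 CPM in IL-10-producing and in IL-10-negative cells, both lower in IL-10-producing cells. Of 13 ILC2 markers, 4 rose (30.8%), 6 fell and 3 did not pass. Beside this and the marker counts below, 17.1% of all genes tested rose and 18.6% fell. Il2ra, the IL-2 receptor alpha chain, rose, at 5835 ± 47.38 CPM in IL-10-producing cells, against 4206 ± 38.74 CPM in IL-10-negative cells. Klrg1 also rose, at 476.1 ± 2.399 CPM in IL-10-producing cells, against 308.6 ± 3.711 CPM in IL-10-negative cells. The 13 markers summed to between 16250 and 16410 CPM in IL-10-producing and between 15730 and 15890 CPM in IL-10-negative libraries. Of 12 T-cell markers, Lef1 was higher in IL-10-producing cells and the other 11 were lower, with a median log2 fold change of -2.67. The sum of the 12 ranged from 280.3 to 284.3 CPM in IL-10-producing cells, against 370.1 to 372.8 CPM in IL-10-negative cells. The ratio of the mean sums was 0.7609, so the sum does not show the typical change of these markers. Cd3e averaged 1.254 and 8.188 CPM, and Cd8a 0.05943 and 15.29 CPM, in IL-10-producing and in IL-10-negative cells. Of 14 markers of mast cells, basophils and neutrophils, 12 could be tested and all 12 were lower in IL-10-producing cells. Their sum ranged from 13.03 to 15.11 CPM in IL-10-producing cells, against 103.7 to 109.3 CPM in IL-10-negative cells. The sums in IL-10-producing libraries were 41.71 to 44.22 CPM for 6 B-cell markers (1 higher, 4 lower), 6.288 to 6.914 CPM for macrophages and dendritic cells (1 of 6 tested higher, 2 lower), 5.71 to 6.691 CPM for NK cells (1 of 3 tested higher, 2 lower), and 118.9 to 125.2 CPM for epithelium, endothelium and fibroblasts (1 of 3 tested higher, 1 lower). In IL-10-negative libraries the same sums were 36.82 to 37.97 CPM for B cells, 6.449 to 7.531 CPM for macrophages and dendritic cells, 8.993 to 9.79 CPM for NK cells, and 103.5 to 110.8 CPM for epithelium, endothelium and fibroblasts. Except for macrophages and dendritic cells, these sums did not overlap between the groups, and their part in the result was not tested. A sum is weighted to its highest genes. The median log2 fold change of the tested markers was -0.98 for B cells and -4.91 for NK cells. It was -0.26 for macrophages and dendritic cells, and 0.29 for epithelium, endothelium and fibroblasts.

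The mitotic kinases, cyclins and phosphatases included the largest folds. All 9 were higher in IL-10-producing cells, with a median log2 fold change of 0.38, and 7 passed glmTreat against 1.2-fold. Ccnb1, which encodes cyclin B1, the partner that activates Cdk1 at entry into mitosis, had 122.9, 128.7 and 133.3 CPM in IL-10-producing cells, against 87.64, 89.81 and 88.92 CPM in IL-10-negative cells. The groups were separated by a gap wider than the spread of either, and the log2 fold change was 0.53 (SE 0.029, adjusted p = 1.26e-13). Aurka, the kinase of centrosomes and spindle poles, had 111.7, 113.1 and 113.7 CPM in IL-10-producing cells, against 81.08, 80.27 and 80.82 CPM in IL-10-negative cells. Its libraries hardly differed within a group, and its log2 fold change was 0.48 (SE 0.026, adjusted p = 1.08e-13). Cdk1, the kinase itself, had 161.2, 160.4 and 159.1 CPM in IL-10-producing cells, against 124, 118.7 and 118 CPM in IL-10-negative cells. Here too all IL-10-producing libraries were higher, by 0.42 on the log2 scale (SE 0.025, adjusted p = 6.97e-13).

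The other kinases moved by similar amounts. Plk1, which acts at centrosomes, kinetochores and the midbody, averaged 128.2 ± 4.112 CPM in IL-10-producing cells, against 98.44 ± 2.621 CPM in IL-10-negative cells, and Aurkb, the kinase of the chromosomal passenger complex, 110 ± 2.211 and 84.45 ± 1.646 CPM (SD, n = 3 each), both at a log2 fold change of 0.38. Ccna2, or cyclin A2, which works in S phase and early mitosis, had 263, 263.2 and 262.2 CPM in IL-10-producing cells, against 201.4, 199.4 and 204 CPM in IL-10-negative cells, also 0.38. The Cdc25 phosphatases rose as well. Cdc25c had 16.34, 15.89 and 15.44 CPM in IL-10-producing cells, against 12.03, 11.81 and 11.05 CPM in IL-10-negative cells (log2 fold change 0.45, SE 0.062). Cdc25b had 152.8, 157.2 and 151.4 CPM in IL-10-producing cells, against 126.1, 123.4 and 124.8 CPM in IL-10-negative cells (log2 fold change 0.30, SE 0.024), and it did not pass glmTreat against 1.2-fold (adjusted p = 0.158). The smallest change of the group was in Ccnb2, or cyclin B2, at 94.96, 94.75 and 96.2 CPM in IL-10-producing cells, against 79.63, 79.71 and 83.47 CPM in IL-10-negative cells. Its groups did not overlap either, with a log2 fold change of 0.24 (SE 0.028, adjusted p = 2.26e-07).

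Many of the members share promoter letters that their choice did not use. RefSeq start sites on GRCm38.p6 with 250 bases before and 50 bases after them were at hand for 41 of the 50 members, and 9 had no entry (Foxm1, Ccna2, Tpx2, Kif20a, Smc4, Spc24, Incenp, Aurkb and Cdc25c). The letters TTTGAA or TTCGAA, the core of the cell-cycle genes homology region (CHR) to which the DREAM and B-Myb complexes bind, were present on either strand in 33 of 41 members (80.5%), against 5854 of 27025 genes with such a window (21.7%). CCAAT, the letters bound by the factor NF-Y, was present on either strand in 30 of 41 members (73.2%), against 41.1% of all genes. It was present at 2 or more positions in 51.2% of the members, against 13.3% of all genes. Both motifs were found in 28 of 41 members (68.3%), against 8.61% of all genes, and they overlapped each other in 1 member. A CHR core within 50 bases of the start was found in 30 of 41 members (73.2%), against 6.12% of all genes.

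Windows are printed for the members with the largest and smallest folds of the cyclins and kinases (Ccnb1, Aurka, Cdk1, Ccnb2), for the member with the smallest adjusted p (Mki67), and for the member with the smallest fold (Bub3, the first of its 2 starts). Capitals mark the letters of either motif on either strand, and each sequence runs 5′ to 3′ on the gene's strand. Ccnb1 is at chr13:100786437-100786736 (minus strand), Aurka at chr2:172370521-172370820 (minus strand), Cdk1 at chr10:69352863-69353162 (minus strand), Ccnb2 at chr9:70421505-70421804 (minus strand), Mki67 at chr7:135716330-135716629 (minus strand) and Bub3 at chr7:131560120-131560419 (plus strand).
Ccnb1: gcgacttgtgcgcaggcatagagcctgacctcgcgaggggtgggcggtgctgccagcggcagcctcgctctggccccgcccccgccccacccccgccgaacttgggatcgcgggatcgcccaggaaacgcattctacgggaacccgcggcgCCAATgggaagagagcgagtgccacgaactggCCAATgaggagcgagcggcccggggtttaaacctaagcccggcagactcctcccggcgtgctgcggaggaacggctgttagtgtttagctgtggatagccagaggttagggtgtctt
Aurka: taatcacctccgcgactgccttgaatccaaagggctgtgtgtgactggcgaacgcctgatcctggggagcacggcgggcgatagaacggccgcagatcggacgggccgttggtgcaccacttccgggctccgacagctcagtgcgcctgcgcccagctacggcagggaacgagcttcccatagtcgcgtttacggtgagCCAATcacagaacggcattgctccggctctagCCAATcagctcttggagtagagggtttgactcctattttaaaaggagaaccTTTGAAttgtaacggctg
Cdk1: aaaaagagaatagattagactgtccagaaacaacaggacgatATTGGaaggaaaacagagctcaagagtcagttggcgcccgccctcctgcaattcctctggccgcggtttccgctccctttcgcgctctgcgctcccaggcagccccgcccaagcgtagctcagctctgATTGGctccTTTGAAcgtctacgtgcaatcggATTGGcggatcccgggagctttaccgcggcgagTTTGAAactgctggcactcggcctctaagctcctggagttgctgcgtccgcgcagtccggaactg
Ccnb2: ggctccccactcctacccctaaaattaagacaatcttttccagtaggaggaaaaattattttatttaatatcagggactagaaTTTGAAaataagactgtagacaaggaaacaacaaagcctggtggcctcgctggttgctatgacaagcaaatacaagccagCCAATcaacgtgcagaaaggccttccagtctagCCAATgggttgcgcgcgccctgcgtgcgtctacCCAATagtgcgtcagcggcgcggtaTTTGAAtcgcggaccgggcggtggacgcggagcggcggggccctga
Mki67: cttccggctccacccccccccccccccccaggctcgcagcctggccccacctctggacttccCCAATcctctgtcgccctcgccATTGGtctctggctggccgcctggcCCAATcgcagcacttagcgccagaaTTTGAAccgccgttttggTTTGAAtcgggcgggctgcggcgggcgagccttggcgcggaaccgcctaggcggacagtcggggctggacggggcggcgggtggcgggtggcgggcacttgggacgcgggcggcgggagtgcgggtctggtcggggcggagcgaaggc
Bub3: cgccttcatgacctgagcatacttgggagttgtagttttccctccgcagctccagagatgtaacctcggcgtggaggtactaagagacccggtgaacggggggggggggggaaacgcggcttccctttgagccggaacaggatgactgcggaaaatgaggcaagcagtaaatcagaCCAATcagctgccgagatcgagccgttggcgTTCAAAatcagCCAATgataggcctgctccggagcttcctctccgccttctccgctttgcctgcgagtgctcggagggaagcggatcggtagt

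The window of Ccnb1, the member with the largest fold, holds 2 copies of CCAAT, at positions -99 and -67 from the start, and no TTTGAA or TTCGAA. Ccnb2 holds 3 copies of CCAAT, at -87, -54 and -21, and CHR cores at -167 and 5. Cdk1 has CHR cores at -71 and -15, and Aurka has a single one, at 33. Bub3, with the smallest fold, holds a CHR core at -43 and CCAAT at -74 and -32. The median log2 fold change was 0.343 in the 33 with a CHR core and 0.365 in the 8 without, and 0.351 in the 30 with CCAAT and 0.318 in the 11 without. Over all tested genes with a window, 29.5% of the 650 with both motifs were higher in IL-10-producing cells and 16.3% were lower. Of the 9042 others, 18.9% were higher and 22.6% were lower. Both sets include members, 28 of the 650 and 13 of the 9042, all of them higher. Shares without the members were not computed. A match of letters is a description of the window and not of binding.

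The 7 genes of the spindle checkpoint and the APC/C spanned log2 fold changes from 0.12 to 0.41. All 7 were higher in IL-10-producing cells (median log2 fold change 0.35), and 4 passed glmTreat against 1.2-fold. Ttk, the Mps1 kinase that starts checkpoint signalling at kinetochores, had 35.58, 39.84 and 38.56 CPM in IL-10-producing cells, against 24.43, 30.68 and 30.54 CPM in IL-10-negative cells. IL-10-negative library 1 was lower than the other libraries of its group, and the log2 fold change of 0.41 had the second largest SE of the members after Cdc25c, 0.062 (adjusted p = 6.98e-06). Bub1, a checkpoint kinase, averaged 78.86 ± 1.396 and 60.38 ± 2.887 CPM, and Bub1b, a part of the complex that blocks Cdc20, averaged 157.3 ± 3.093 and 123.7 ± 1.334 CPM in IL-10-producing and in IL-10-negative cells (SD, n = 3 each). Their log2 fold changes were 0.38 and 0.35.

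Bub3 and Mad2l1, also parts of the checkpoint complex, changed least in this group. Bub3 had 142.5, 143.8 and 146.9 CPM in IL-10-producing cells, against 134.6, 128.6 and 136 CPM in IL-10-negative cells. The lowest IL-10-producing library lay above the highest IL-10-negative one, and the log2 fold change of 0.12 (SE 0.025, adjusted p = 0.000616) was the lowest of the 50. Mad2l1 had 111.9, 107.8 and 113.1 CPM in IL-10-producing cells, against 95.1, 96.4 and 88.98 CPM in IL-10-negative cells (log2 fold change 0.25). Of the APC/C side, Ube2c, the ubiquitin-conjugating enzyme that works with the complex, had 153.5, 155.5 and 153.8 CPM in IL-10-producing cells, against 120.7, 121 and 118.9 CPM in IL-10-negative cells. Its log2 fold change was 0.36 (SE 0.023, adjusted p = 3.65e-12). Cdc20, the activator that the checkpoint holds back, averaged 120.9 ± 1.842 CPM in IL-10-producing cells, against 97.56 ± 4.379 CPM in IL-10-negative cells (log2 fold change 0.31), but it overlaps Elovl1 on the opposite strand, whose counts amounted to 89.761% of its own. The sources used here do not say if strand entered the counting.

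The 10 kinesins, motors that move along or take apart spindle microtubules, all rose, with log2 fold changes between 0.25 and 0.39 and a median of 0.32, and 4 of them passed glmTreat against 1.2-fold. Kif11, the motor that pushes spindle poles apart, had the highest level per kilobase of transcript among them (58.62 and 46.14 CPM per kilobase in IL-10-producing and in IL-10-negative cells), with 282.1, 279.2 and 286.2 CPM in IL-10-producing cells, against 221.5, 225.9 and 219.7 CPM in IL-10-negative cells (log2 fold change 0.34, SE 0.021, adjusted p = 8.66e-13). Kif15, which can share in the work of Kif11, averaged 132.2 ± 2.39 and 104.6 ± 1.569 CPM in IL-10-producing and in IL-10-negative cells, also at 0.34. Neither pair of groups overlapped.

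Kif20b, a kinesin of late mitosis, had the largest change of the family, with 100.3, 101.4 and 107 CPM in IL-10-producing cells, against 76.35, 80.95 and 77.18 CPM in IL-10-negative cells (log2 fold change 0.39, adjusted p = 1.2e-10). The chromosome-bound motors Kif22 and Kif4 averaged 125.9 ± 3.484 and 99.63 ± 4.15 CPM in IL-10-producing cells, against 99.23 ± 1.037 and 80.43 ± 1.854 CPM in IL-10-negative cells. Kif2c, which depolymerises microtubules at centromeres, averaged 60.55 ± 2.58 CPM in IL-10-producing cells, against 49.27 ± 0.8574 CPM in IL-10-negative cells (log2 fold change 0.30). Of the kinesin-8 motors, which act on microtubule plus ends, Kif18a had 24.37, 24.88 and 25.62 CPM in IL-10-producing cells, against 19.68, 20.55 and 18.28 CPM in IL-10-negative cells (0.35). Kif18b had 112.4, 115.8 and 108.9 CPM in IL-10-producing cells, against 97.05, 93.04 and 89.05 CPM in IL-10-negative cells (0.27). All IL-10-producing libraries were higher for both. Kif20a and Kif23, motors of the central spindle needed for cytokinesis, had log2 fold changes of 0.31 and 0.25. Kif20a had 113.3, 114.7 and 112.1 CPM in IL-10-producing cells, against 88.26, 95.43 and 90.84 CPM in IL-10-negative cells. Kif23 had 115.6, 118.5 and 113.8 CPM in IL-10-producing cells, against 97.34, 98.39 and 97.81 CPM in IL-10-negative cells. Neither overlapped between the groups.

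The 10 centromere and kinetochore genes rose by 0.27 to 0.42 (median 0.33), and 5 passed glmTreat against 1.2-fold. Cenpe, a kinetochore motor that carries chromosomes to the spindle equator, had 225.4, 230.2 and 237.2 CPM in IL-10-producing cells, against 172.1, 174.5 and 171.9 CPM in IL-10-negative cells (log2 fold change 0.42, SE 0.023, adjusted p = 1.24e-13). Cenpf, a large protein of the outer kinetochore, had 211.3, 220.4 and 223.6 CPM in IL-10-producing cells, against 170.1, 161.1 and 168.2 CPM in IL-10-negative cells (0.39). Cenpa, the histone H3 variant that marks centromeres, had 127.4, 124.5 and 128.6 CPM in IL-10-producing cells, against 105.3, 104.4 and 104.7 CPM in IL-10-negative cells (0.27). None of these 3 genes overlapped between groups.

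The NDC80 complex, which grips the microtubule end, is built from the products of Ndc80, Nuf2, Spc24 and Spc25. Its 4 genes summed to 264.4 CPM in IL-10-producing cells, against 208.7 CPM in IL-10-negative cells, with log2 fold changes from 0.31 to 0.37. Nuf2 had the largest fold of these, at 81.32, 80.72 and 80.33 CPM in IL-10-producing cells, against 60.21, 64.37 and 62.31 CPM in IL-10-negative cells. The chromosomal passenger complex, which corrects wrong attachments, consists of Aurkb with Incenp, Birc5 and Cdca8, and its 4 genes summed to 611.1 CPM in IL-10-producing cells, against 489.4 CPM in IL-10-negative cells. Birc5, or survivin, had 156.3, 148.7 and 158.2 CPM in IL-10-producing cells, against 118.8, 121.7 and 115.5 CPM in IL-10-negative cells (log2 fold change 0.38, adjusted p = 2.61e-11). Incenp and Cdca8 both changed by 0.28, at 232 ± 3.311 and 114.7 ± 1.914 CPM in IL-10-producing cells, against 191.5 ± 2.1 and 94.71 ± 2.639 CPM in IL-10-negative cells (SD, n = 3 each).

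All 6 genes of spindle assembly and cytokinesis rose by 0.31 to 0.42 (median 0.34), and 4 passed glmTreat against 1.2-fold. Hmmr, a microtubule-binding protein of the spindle, had 133.3, 135.9 and 141.1 CPM in IL-10-producing cells, against 103.4, 99.57 and 103.1 CPM in IL-10-negative cells (log2 fold change 0.42, SE 0.027, adjusted p = 2.65e-12). Tpx2, which activates Aurora A on the spindle, had 242.5, 240.3 and 243.4 CPM in IL-10-producing cells, against 193.4, 194.9 and 194.7 CPM in IL-10-negative cells (0.32). Its 1.245-fold change passed glmTreat against 1.2-fold with an adjusted p of 0.0228, so that it lay close to that bound. Nusap1, which bundles spindle microtubules, averaged 143.6 ± 4.092 and 115.8 ± 2.069 CPM in IL-10-producing and in IL-10-negative cells.

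The genes of the central spindle and the division furrow rose too. Prc1, which crosslinks microtubules of the central spindle, had 211.7, 220.7 and 221.7 CPM in IL-10-producing cells, against 170.5, 170.6 and 167.6 CPM in IL-10-negative cells (0.36). Ect2, the exchange factor that switches on RhoA at the furrow, averaged 90.17 ± 1.057 and 70.58 ± 3.743 CPM in IL-10-producing and in IL-10-negative cells (0.35). Anln, or anillin, the scaffold of the contractile ring, averaged 56.71 ± 0.3971 and 45.5 ± 2.089 CPM (0.32). In each of them the lowest IL-10-producing library was above the highest IL-10-negative library.

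All 7 chromosome structure genes rose, by 0.27 to 0.44 (median 0.29), and 3 passed glmTreat against 1.2-fold. Mki67, whose product Ki-67 coats mitotic chromosomes and is the usual marker of cycling cells, had 2008, 1981 and 2038 CPM in IL-10-producing cells, against 1516, 1509 and 1526 CPM in IL-10-negative cells. Its log2 fold change of 0.40 (SE 0.016) had the smallest adjusted p of the 50, 2.47e-16. Top2a, the topoisomerase that untangles sister chromatids, had 964.7, 985.7 and 993.5 CPM in IL-10-producing cells, against 813.7, 811.7 and 813.3 CPM in IL-10-negative cells. Its log2 fold change was 0.27 (SE 0.017, adjusted p = 2e-12), and glmTreat against 1.2-fold gave an adjusted p of 0.738. The 5 genes of condensin I, the ring that compacts chromosomes, summed to 1393 CPM in IL-10-producing cells, against 1126 CPM in IL-10-negative cells, with a median of 0.29. Among them Ncapg stood highest in fold, with 116.2, 115.2 and 118.4 CPM in IL-10-producing cells, against 83.3, 87.95 and 86.67 CPM in IL-10-negative cells (log2 fold change 0.44, SE 0.027, adjusted p = 1.82e-12). Smc2 followed at 0.34, Ncaph and Ncapd2 at 0.29 each, and Smc4 at 0.27. Smc4 had 423, 417.1 and 434.2 CPM in IL-10-producing cells, against 351.8, 356 and 346.9 CPM in IL-10-negative cells.

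Foxm1, the transcription factor that drives many of these genes in G2, was itself higher. It had 134.3, 140.6 and 133.2 CPM in IL-10-producing cells, against 115.5, 109.9 and 119.2 CPM in IL-10-negative cells. The groups did not overlap, and the log2 fold change was 0.25 (SE 0.029, adjusted p = 1.95e-07), below the median of the members.

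Levels were compared between genes as CPM per kilobase of the longest annotated transcript. On this scale Top2a and Mki67 were the highest members, at 188 and 199.7 CPM per kilobase in IL-10-producing cells, against 155.7 and 150.8 CPM per kilobase in IL-10-negative cells, and their order differed between the groups. Smc4 came next, at 98.42 and 81.45 CPM per kilobase in IL-10-producing and in IL-10-negative cells. The lowest were Kif18a, at 3.834 and 2.996, and Cdc25c, at 6.033 and 4.415 CPM per kilobase in IL-10-producing and in IL-10-negative cells. Across the 50 members, the log2 level per kilobase in IL-10-negative cells and the log2 fold change had a Pearson r of -0.17 and a Spearman rho of -0.2, as a description of genes measured in the same libraries. With transcript length the values were 0.03 and -0.03. Of the 8814 genes tested whose IL-10-negative mean lay between the lowest and the highest member (11.63 to 1517 CPM), 25.95% were higher in IL-10-producing cells and 23.62% were lower.

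**Figure D3:**
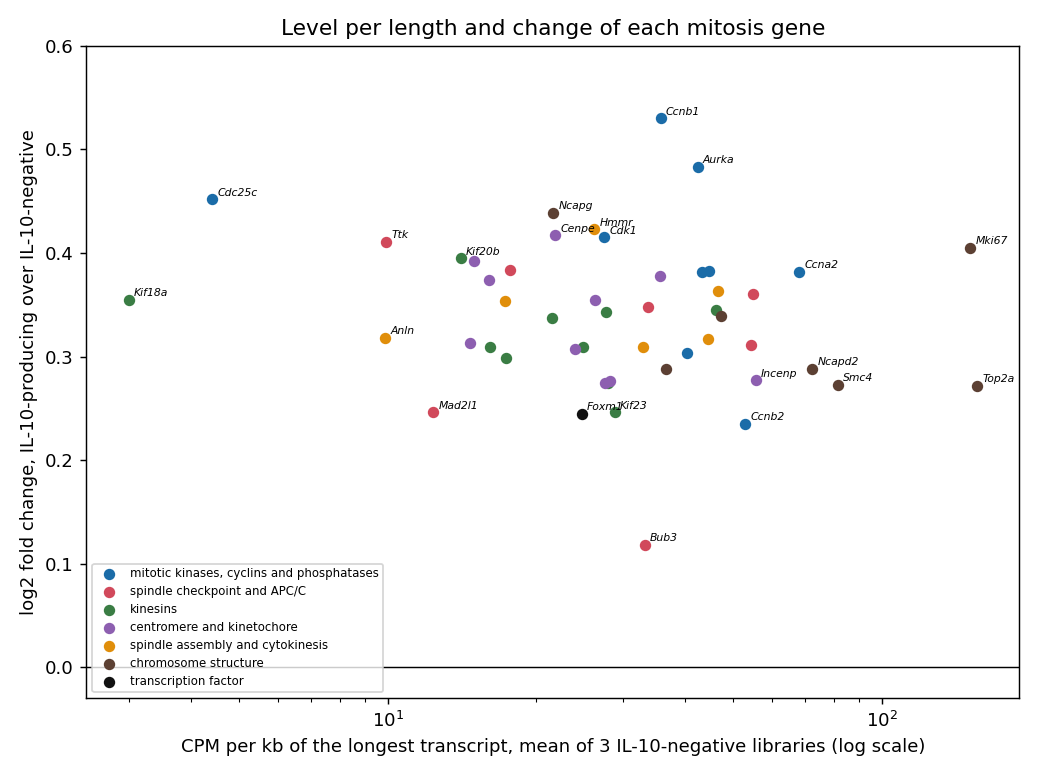
Log2 fold change (IL-10-producing over IL-10-negative) of each mitosis gene against its mean CPM per kilobase in the 3 IL-10-negative libraries (log axis), coloured by role, with the extreme genes named. Kif18a and Cdc25c have the lowest levels, Top2a and Mki67 the highest, and r is -0.17 across the 50 genes.

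Shares within the pool are given as a description with no test. As a share of the summed CPM of the 50, 9 members were higher in every IL-10-producing library than in every IL-10-negative one (Ccnb1, Aurka, Cdk1, Ccna2, Cdc25c, Cenpe, Hmmr, Mki67 and Ncapg), 11 were lower in every one (Ccnb2, Bub3, Mad2l1, Kif23, Cenpa, Incenp, Tpx2, Top2a, Smc4, Ncapd2 and Ncaph), and 30 overlapped. Beside these counts, 21.7% of all genes tested were higher and 23.5% were lower without overlap in CPM, a measure unlike a share of the pool. The named members are therefore not set apart from genes at large. Such shares add up to a fixed total, so a rise of some has to come with a fall of others. Ccnb1 made up 1.297% of the sum in IL-10-producing and 1.137% in IL-10-negative cells. Bub3 made up 1.46% and 1.704%, Mki67 20.31% and 19.42%, and Top2a 9.921% and 10.41% in IL-10-producing and in IL-10-negative cells.

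Ratios between partner genes within a library, which do not depend on how libraries are scaled, were computed for 11 pairs chosen after their values were known. Ccnb1 over Ccnb2 was 1.295, 1.359 and 1.386 in IL-10-producing cells, against 1.101, 1.127 and 1.065 in IL-10-negative cells, a log2 difference of 0.29. Ncapg over Ncaph was 0.9653, 0.9733 and 0.9691 in IL-10-producing cells, against 0.8527, 0.8966 and 0.869 in IL-10-negative cells (0.15). Aurka over Aurkb was 1.037, 1.008 and 1.035 in IL-10-producing cells, against 0.9409, 0.9526 and 0.9749 in IL-10-negative cells (0.1). These 3 ratios did not overlap between the groups, nor did those of Cdc25c over Cdc25b, Kif20b over Kif20a and Smc2 over Smc4. Among the genes of these 6 ratios, Kif20a and Ncapg overlap an opposite-strand gene with counts at 52.541% and 18.034% of their own. Their ratios are uncertain if strand was not used in counting. The exact permutation test (two-sided) gave p = 0.1 for each of the 6, the smallest p that 3 against 3 libraries allow, and 0.183 after adjustment over the 11 pairs. The smallest possible p lies above the threshold used for genes, so this test could not pass and decides nothing about the pairs. Beside the 6 of 11 pairs, 21.7% of all genes tested were higher and 23.5% were lower without overlap between the groups. These shares are of single genes in CPM, and no share was computed for ratios of other gene pairs. The other 5 pairs overlapped, among them Bub1 over Bub1b (log2 difference 0.04, exact permutation p = 0.6) and Cenpe over Cenpf (0.03, exact permutation p = 0.4).

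**Figure D4:**
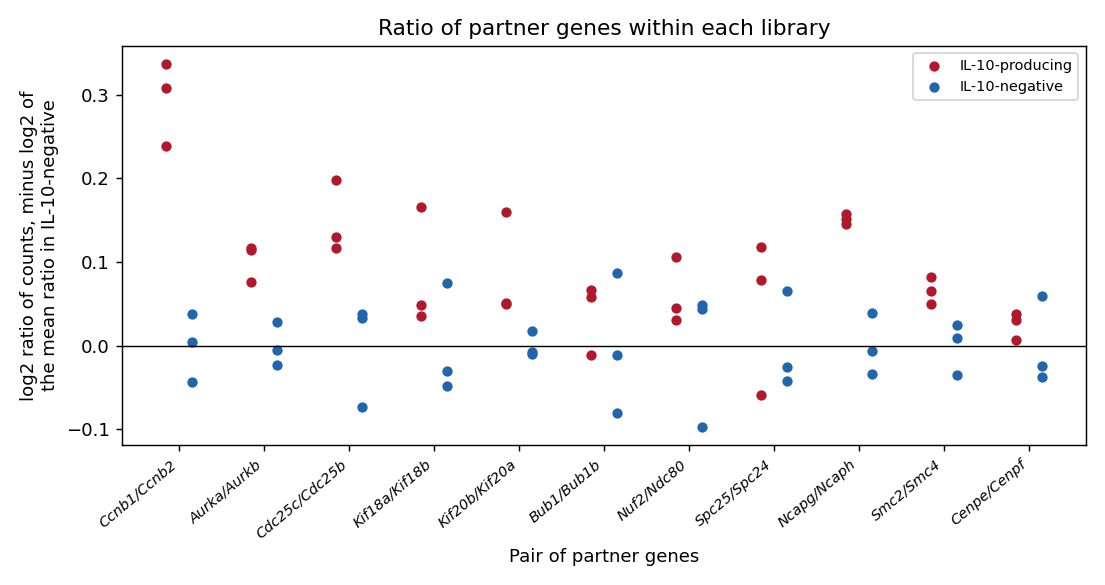
Ratio of counts between partner genes in each of the 3 IL-10-producing and 3 IL-10-negative libraries, for 11 pairs, on a log2 scale relative to the IL-10-negative mean. The ratio of Ccnb1 over Ccnb2 shows the widest gap between groups, with a log2 difference of 0.29, and 5 pairs overlap.

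Other genes of the same processes, from lists of related genes that hold no member, were mostly higher too, with smaller medians. Beside the counts below, 17.1% of all genes tested were higher and 18.6% were lower. Of 40 other spindle, cytokinesis and G2/M genes, 39 rose and 0 fell (median log2 fold change 0.28), with Aspm, which focuses spindle poles, at 136.4 ± 4.691 and 103.3 ± 0.4649 CPM in IL-10-producing and in IL-10-negative cells (adjusted p = 7.22e-12). The exception was Pttg1, or securin, at 12.99 and 13.69 CPM in IL-10-producing and in IL-10-negative cells (adjusted p = 0.388). Of 34 other kinetochore and centromere genes, 25 rose, 1 fell and 8 did not pass (median 0.25). Casc5, whose product Knl1 is the platform for Bub1 and Bub3, averaged 117.6 ± 3.312 and 88.06 ± 3.064 CPM in IL-10-producing and in IL-10-negative cells (0.42). Zwint, which binds Knl1, was the gene that fell, to 82.31 ± 0.5961 CPM in IL-10-producing cells, against 87.65 ± 1.603 CPM in IL-10-negative cells (adjusted p = 0.0117). That call was lost without the IL-10-producing library 2 or without the IL-10-negative library 1. Of 17 core subunits and regulators of the APC/C, 10 rose and 0 fell (median 0.14). Of 16 genes of cohesin and condensin II, the complex related to condensin I, 13 rose and 1 fell (median 0.12). Of the 13, Stag2 was lost with a GC and length correction (adjusted p = 0.0684) and Pds5b with library size only (adjusted p = 0.0774). The gene that fell was Mau2, a part of the cohesin loader, at 92.3 ± 4.044 CPM in IL-10-producing cells, against 102.3 ± 1.33 CPM in IL-10-negative cells (adjusted p = 0.000226).

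The DNA replication genes of the preceding S phase rose in 42 of 44 cases with a median of 0.20, and 0 fell. Rrm2, the cycling subunit of ribonucleotide reductase, averaged 708.2 ± 4.918 CPM in IL-10-producing cells, against 529.4 ± 0.5792 CPM in IL-10-negative cells (log2 fold change 0.42, adjusted p = 5.08e-16). The counts of the 50 mitosis genes over those of the replication genes gave 1.523, 1.529 and 1.555 in IL-10-producing libraries, against 1.41, 1.425 and 1.414 in IL-10-negative libraries, without overlap. This ratio of sums was not tested and is weighted to the highest genes. Mki67 made up 20.31% and Top2a 9.921% of the members' summed CPM in IL-10-producing cells, against 19.42% and 10.41% in IL-10-negative cells. Of 21 E2F, DREAM and NF-Y factors, 15 rose and 0 fell (median 0.17). Mybl2, the B-Myb factor of the G2 promoters, averaged 89.73 ± 3.043 and 69.32 ± 1.068 CPM in IL-10-producing and in IL-10-negative cells (log2 fold change 0.37, adjusted p = 2.81e-10).

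Further lists held the transport kinesins and the growth arrest genes. Of 18 tested kinesins and light chains of cargo transport, 3 rose, 5 fell and 10 did not pass (median -0.03). The 16.7% that rose was near the 17.1% of all genes tested that rose, and 18.6% of all genes fell. Of the mitotic kinesins, 10 of 10 rose. Kif1c rose by 0.29, at 197.7 ± 5.235 CPM in IL-10-producing cells, against 162.1 ± 1.894 CPM in IL-10-negative cells, and Kif1b fell by 0.21 on the log2 scale. The others that rose were Kif5b and Kif21b, by 0.09 and 0.10. Of 21 growth arrest genes, 4 rose (19%, near the share of all genes) and 11 fell (median -0.13). Klf2, a factor of lymphocyte quiescence, fell to 10.28 ± 1.037 CPM in IL-10-producing cells, against 20.59 ± 0.7518 CPM in IL-10-negative cells (adjusted p = 7.15e-12). Tob2, an antiproliferative gene, fell to 111.7 ± 2.045 CPM in IL-10-producing cells, against 151.4 ± 3.162 CPM in IL-10-negative cells. The genes of this list that rose were Cdkn2d and Cdkn2c, inhibitors of Cdk4 and Cdk6, and Ccng1 and Ccng2, atypical cyclins. The call of Cdkn2c (log2 fold change 0.08, adjusted p = 0.0371) was lost in 7 of the 17 alternatives other than glmTreat, among them library size only (adjusted p = 0.223) and without the IL-10-negative library 2 (adjusted p = 0.249). Cdkn1a, the inhibitor p21, stood at 352.5 and 343 CPM in IL-10-producing and in IL-10-negative cells and did not pass (adjusted p = 0.132).

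**Figure D5:**
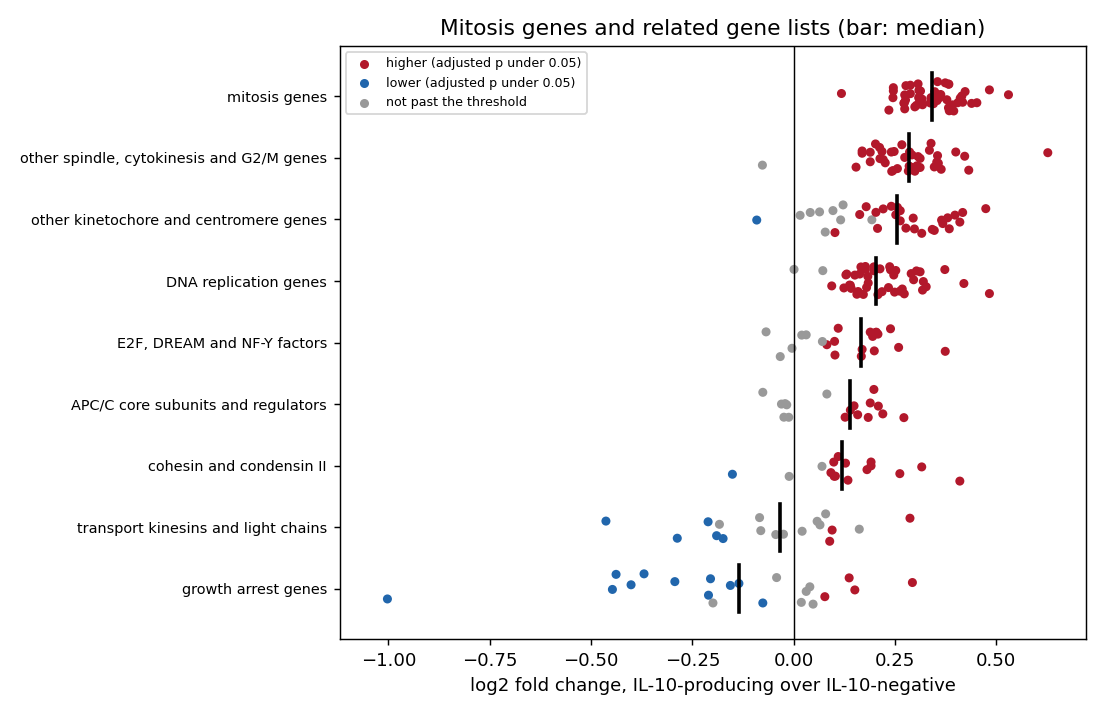
Log2 fold change (IL-10-producing over IL-10-negative) of every tested gene in the mitosis list and in 8 related lists, 1 point per gene, with the median of each list. The mitosis genes have the highest median, 0.34, and the growth arrest genes the lowest, -0.13, with Klf2 as the lowest point.

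Read assignment limits a few of these values. In the deposited coordinates 19 members overlap another row, and for 7 of them the neighbour has counts above 10% of the member's own (Ccna2, Cdc20, Kif18a, Kif20a, Kif4, Ncapg and Nusap1), all on the opposite strand. Their values are uncertain if strand was not used in counting.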

How the data were processed

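The tools named in the submitters' processing notes are STAR 2.5.3a, bcl2fastq 2.17.1.14 and Partek, with build mm10. The authors deposited estimated counts per gene (21017 genes, 50.4% of values not whole, smallest gene total 10), and also normalized signal values (13824 genes) that equal, within a tolerance of 1%, the count plus 1 times a factor per library, here an alternative. Annotation release and strand use were not given in the sources used here. Positions are 1-based on mm10.

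Counts were rounded and tested on all 6 libraries with edgeR 4.0.16 in R 4.3.3 (quasi-likelihood F test, TMM factors, filterByExpr with minimum count 10 and minimum total 15, group as the only term, Benjamini-Hochberg over 16654 genes, threshold 0.05). Of these steps, the edgeR test as set up here was tried on simulated counts. The recovery that this trial required was only of folds larger than that of any member. It therefore does not show how well changes of the members' size are recovered. Members and lists were chosen with earlier results of these data known. All members are named. Of each related list, the 3 genes with the smallest p and those against the list's direction could be named. Outside this rule, Stag2 and Pds5b were named for lost calls, and Cdkn1a as a gene that did not pass. Alternatives changed the scaling, filter, tool (DESeq2 1.42.0, limma 3.58.1), GC and length correction, replicate number, null fold and libraries. Of 212 related-list and 69 marker genes, 212 and 62 had a row, some by identifier under an older symbol. Motifs were searched in RefSeq windows of build GRCm38.p6. On average over genes, the libraries of a group differed by more than sampling noise. This does not tell whether they are technical replicates. Levels rest on library totals between 47012941 and 69511433, and no counting interval is given because the labels name no molecular identifiers.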

Additional observations from a re-analysis of the deposited data

How the results depend on the processing

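All 50 members were higher and 0 lower, each past an adjusted p of 0.05, in 17 of the 18 alternatives. In the remaining one, glmTreat against 1.2-fold, 27 were called higher and 0 lower, and the number of genes changed was 1317, against 5943 with a null of no change; the alternative asks for a larger change by construction. Over the 18 alternatives the log2 fold change of a member stayed between 0.09 and 0.56, and outside glmTreat the highest adjusted p was 0.00988 (Bub3). With library size only, the median log2 fold change of the members was 0.31, in place of 0.34, and 36.8% of the 6000 genes changed were higher, in place of 47.8%. Leaving out each library in turn gave between 5232 and 5519 genes changed, 50 members higher each time, 0 lower each time, and a median between 0.329 and 0.346. DESeq2 called 5254 genes. TMM factors computed without the cell-cycle genes gave a median of 0.346. Of 169 calls in the related lists, 13 were lost in at least 1 alternative other than glmTreat, with 0 changes of direction among them: 3 of 42 replication genes, 2 of 39 other spindle genes, 3 of 26 other kinetochore genes, 2 of 14 cohesin and condensin II genes, 1 of 15 E2F, DREAM and NF-Y factors and 2 of 15 growth arrest genes. With the replicate number as a replicate block, 5817 genes changed, 50 members were higher and their median was 0.341. The deviations of libraries with the same number had correlations of -0.00445, -0.00333 and -0.0163 over 12951 genes. No library correlated best with its own number, so the numbers were not taken to pair the libraries. Depth did not set the number of members tested, since all 50 passed the filter on low counts.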
